A study of Mus musculus with 2 samples.

Results

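The mRNAs of the cytosolic ribosomal proteins were compared between 2 cultures of wild-type mouse bone marrow cells, of which the first received M-CSF alone (M) and the second M-CSF together with RANKL (MR). The members were all protein-coding genes of GENCODE vM21, on the GRCm38 (mm10) build, whose symbols begin with Rpl or Rps and a digit, together with Rplp0, Rplp1, Rplp2 and Rpsa and without the ribosomal S6 kinases. This gave 92 genes, of which 89 are among the 14870 genes with a locus assembled from the reads of M or MR. Of the 92, 77 encode the subunits themselves, 31 in the small and 46 in the large subunit. Another 14 are paralogues or retrocopies of them, and Rps19bp1 encodes a protein that binds Rps19 and is not a part of the ribosome.

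M-CSF keeps cells of the macrophage lineage alive and dividing, and RANKL, added to it, turns them into osteoclasts, the cells that resorb bone. According to the library labels both cultures began with 2 days of M-CSF, and the next 2 days were with M-CSF and RANKL in the induced culture. The bone marrow culture method of the study gives RANKL a longer time than this, and the strain and age of the wild-type animals are not in the labels. Each culture was sequenced as 1 library, without a replicate, and every value below describes these libraries alone. Total RNA was taken from whole cultures, in which fewer cells of a type and less RNA per cell cannot be told apart.

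The ribosome decodes mRNA on its small subunit and joins amino acids on its large subunit. Each cytosolic ribosomal protein, apart from the stalk proteins, is present as 1 copy per ribosome, and free ribosomal proteins made in excess are degraded. Their mRNAs are among the most abundant of growing cells and begin, as a rule, with a run of pyrimidines (the 5′ TOP element), through which their translation is set by mTORC1 and the protein Larp1.

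The values are TPM, a level scaled for transcript length and for the total of the library, so that genes may be compared within a library. The aligned bases came to 3.63 Gb in M and 2.98 Gb in MR. Differences are log2 ratios of MR to M after adding 1 to each TPM. The intervals in square brackets are 95% Wilson intervals from estimated numbers of read pairs and cover counting error only. Osteoclast markers set the libraries apart in the direction of their labels. The sum over 8 markers was 121 TPM in M and 24835 TPM in MR, with Ctsk, the collagen-cleaving cathepsin, at 53.1 and 12867 TPM and Calcr, the calcitonin receptor, listed at 0 in M and at 50 TPM in MR.

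Ribosomal protein mRNAs took a larger part of the RNA in the RANKL culture. The members summed to 55256 TPM in M and 100428 TPM in MR, which were 5.53% and 10% of all assembled loci. A value was available for the 89 members that reached 1 TPM in M or in MR, and 3 retrocopies or paralogues (Rpl10l, Rpl36-ps4 and Rpl9-ps1) were listed at 0 in both. The median log2 ratio of the 89 members was 0.85, beside 0.21 over the 13464 genes that had their own locus. The ratio was above 0 in 84 members and below 0 in 5, where 59.5% of all genes were above 0 and 40.5% below. It was above 1 in 33 members and below −1 in 2 members, where 21.2% of all genes were above 1 and 13.3% below −1. Median-of-ratios scaling shifted the median of all genes by −0.17 to 0.04. The members' median stood 0.64 above that of all genes in TPM and 0.63 above it after this scaling. Then 81 members were above 0 and 18 above 1, where 51.7% and 17.9% of all genes were.

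The 77 subunit genes differed between the libraries by similar amounts. Their summed level was 53172 TPM in M and 98152 TPM in MR, a ratio of 1.85, and the median of the single ratios was 1.82. Of the 77 genes, 75 were higher in MR and 2, Rps24 and Rpl15, were lower by TPM, and after median-of-ratios scaling Rpl31 was lower too. For Rpl11, Rpl15 and Rps14 the direction also turned when the listed coverage per aligned Gb (a read depth per base) was used in place of TPM, and the ratio moved by over 1.5 times for Rps26, Rpl27a and Rpl36a. The quartiles of the log2 ratios of the subunit genes were 0.76 and 1.15, and those of all genes −0.42 and 0.84. In 60 of the 77 the log2 ratio was within 0.5 of their median of 0.86. The counting interval left out 0 in all 77, with a median of 1997 estimated read pairs per gene in M and 2913 in MR.

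**Figure D1:**
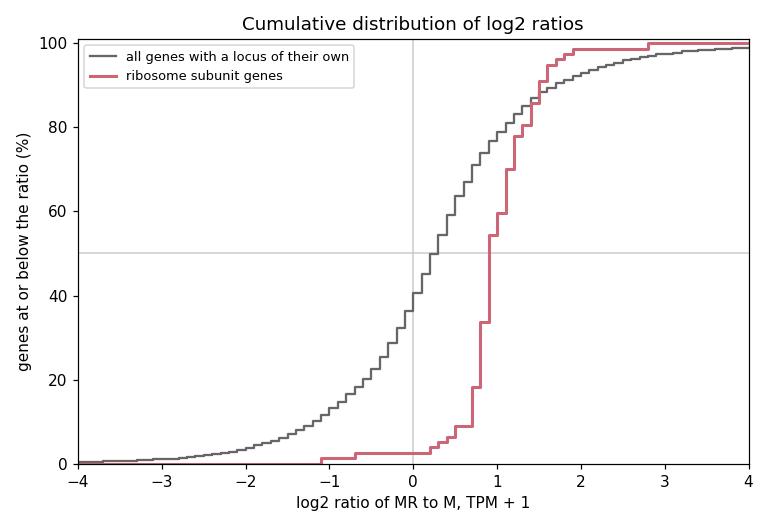
Cumulative distribution of the log2 ratio of MR to M (x axis, TPM + 1) in percent of genes (y axis) for the 77 ribosome subunit genes and for the 13464 genes of the whole data set that had their own locus. The curve of the subunit genes is steeper and crosses the middle line farther to the right, at a median of 0.86 against 0.21, and the curves cross near the top.

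The levels kept much of their order. In M the subunit genes ran from 16.2 to 2260 TPM with a median of 632, and in MR from 113 to 3335 TPM with a median of 1171. Their SD on the log2 scale was 0.92 in M and 0.77 in MR. The lowest gene in both was Rpl29, whose TPM rests on part of the gene. With both strands added its region was at 498 TPM in M and 875 in MR. The SDs and the correlations include Rpl29 as listed and were not computed without it. The smaller SD in MR is thus not shown for the other genes. Across the 77 genes, which share both libraries and are not replicates, Pearson's r between the log2 levels was 0.84 and Spearman's rho was 0.75.

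**Figure D2:**
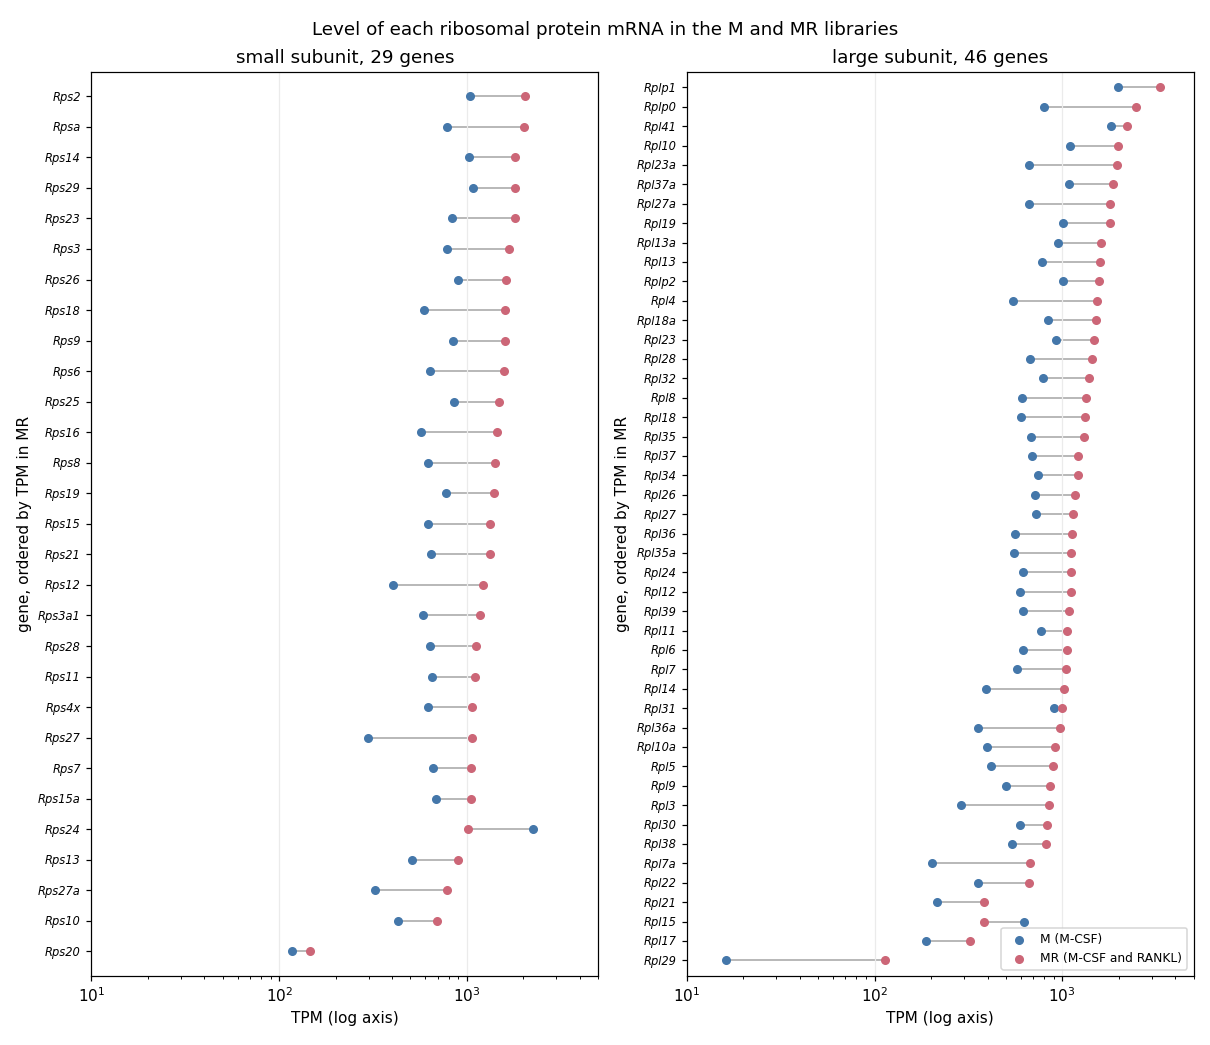
TPM (x axis, log scale) of 29 of the 31 small and all 46 large subunit genes in the M and MR libraries, 1 point per library, with genes ordered by TPM in MR. Nearly all MR points lie to the right of the M points, whereas Rps24 and, in TPM though not by coverage, Rpl15 lie the other way, and Rpl29 is the lowest gene in both libraries at 16.2 and 113 TPM.

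Small subunit genes had a median log2 ratio of 0.92, and their sum was 21868 TPM in M and 40485 TPM in MR. Of the 31, 30 (96.8%) were above 0 and 14 (45.2%) above 1, beside 59.5% and 21.2% of all genes. After Rps24, the most abundant in M were Rps29 at 1083 TPM (1797 in MR), Rps2 at 1041 TPM (2048 in MR) and Rps14, a gene of the human 5q deletion syndrome, at 1032 TPM (1814 in MR). Among the proteins around the channel through which mRNA enters, Rps3 was at 788 TPM in M and 1675 in MR (log2 ratio 1.09), and Rps2 had a log2 ratio of 0.98. Rps23, a protein of the decoding centre, was at 836 TPM in M and 1797 in MR (log2 ratio 1.10). Rps26, at the channel through which mRNA leaves, was at 895 TPM in M and 1621 in MR (log2 ratio 0.86), and by coverage per aligned Gb at 414 and 431 (log2 ratio 0.06). Rps6, the substrate of the S6 kinases, was at 632 TPM in M and 1577 in MR (log2 ratio 1.32). Rpsa, also known as the laminin receptor, was at 782 TPM in M and 2012 in MR (log2 ratio 1.36).

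Several small subunit genes are mutated in Diamond-Blackfan anaemia, an inherited failure of red cell production. Among them, Rps19 was at 770 TPM in M and 1388 in MR. Rps10 was at 427 TPM in M and 690 in MR, and its locus also covered the read-through gene of Rps10 and Nudt3. The log2 ratios were 0.85 and 0.69. Rps27a, which is made as a fusion with ubiquitin, was at 322 TPM in M and 780 in MR (log2 ratio 1.28). Its locus held 80.4% of its exon bases in M and 33.1% in MR, so the loci covered unlike shares of the gene. Of the stretches of read length in its transcript, 66% also occur in other genes. Among these, Rps27a-ps2 was at 383 TPM in M and 596 in MR. The split of reads between Rps27a and its copies was not tested. At the low end Rps20 was at 117 TPM in M and 146 in MR (log2 ratio 0.33 [0.24 to 0.41]). The only coding transcript of Rps20 in vM21 is 3706 nt long. Entries with gene names at the same positions list 117 TPM in M and 148 in MR, close to the values of the locus. Those entries carry positions of another build and were not used, and whether they list the same reads was not tested. Among the larger ratios were those of Rps18, at 594 TPM in M and 1598 in MR (log2 ratio 1.43), and Rps16, at 571 TPM in M and 1452 in MR (log2 ratio 1.35). Rps15a, at 684 TPM in M and 1045 in MR (log2 ratio 0.61), and Rps7, which also binds Mdm2, at 656 TPM in M and 1046 in MR (log2 ratio 0.67), had smaller ones. Another 10 small subunit genes lay between 513 and 851 TPM in M and between 895 and 1594 TPM in MR, with log2 ratios from 0.76 to 1.18.

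Large subunit genes had a median log2 ratio of 0.85, and their sum was 31304 TPM in M and 57667 TPM in MR. Of the 46, 45 (97.8%) were above 0 and 17 (37%) above 1, beside 59.5% and 21.2% of all genes. Rpl3, next to the peptidyl transferase centre, was at 288 TPM in M and 851 in MR (log2 ratio 1.56 [1.44 to 1.69]). Rpl4, in the tunnel wall, was at 548 TPM in M and 1534 in MR (log2 ratio 1.48). Rpl23a, at the tunnel exit, where the signal recognition particle binds, was at 664 TPM in M and 1950 in MR (log2 ratio 1.55 [1.48 to 1.63]). At the same exit Rpl26 and Rpl35 had smaller ratios of 0.71, from 714 to 1169 TPM, and 0.94, from 682 to 1313 TPM. Rpl39, a short protein of the tunnel, was at 617 TPM in M and 1087 in MR (log2 ratio 0.82). Rpl7a, one of the larger proteins, was at 202 TPM in M and 677 in MR (log2 ratio 1.74 [1.63 to 1.84]). This value rests on part of the gene, with 28% of its exon bases covered in M and 35.9% in MR. In MR it includes 38.3 TPM from a locus listed without a strand, which M did not have. With loci of the same strand only, the log2 ratio was 1.65. Of the stretches of read length in the Rpl7a transcript, 65.2% also occur in other genes. The split of reads among these genes was not tested.

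Rpl5 and Rpl11 join the ribosome together in a complex with the smallest rRNA and, when free, bind Mdm2, the ligase that degrades p53. Rpl5 was at 417 TPM in M and 889 in MR (log2 ratio 1.09). Rpl11 was at 774 TPM in M and 1066 in MR (log2 ratio 0.46 [0.39 to 0.54]), and the log2 ratio was −0.24 by coverage per aligned Gb. Rpl10, which is added late in assembly, was at 1097 TPM in M and 1976 in MR (log2 ratio 0.85). Rpl37a, also among the most abundant, was at 1090 TPM in M and 1854 in MR (log2 ratio 0.77). Rpl38, whose loss changes the skeleton of the mouse, was at 538 TPM in M and 819 in MR (log2 ratio 0.61). Rpl27a was at 663 TPM in M and 1795 in MR (log2 ratio 1.44), and by coverage per aligned Gb at 134 and 703 (log2 ratio 2.38). Rpl14 was at 394 TPM in M and 1023 in MR (log2 ratio 1.37) and Rpl10a at 395 TPM in M and 918 in MR (log2 ratio 1.21). Rpl30, whose protein can repress the splicing of its own transcript in yeast, was at 595 TPM in M and 830 in MR (log2 ratio 0.48). Low levels were those of Rpl21 and Rpl17. Rpl21 was at 216 TPM in M and 385 in MR (log2 ratio 0.83). Its locus held 21.9% of its exon bases in M and 8.06% in MR. Rpl17 was at 187 TPM in M and 324 in MR (log2 ratio 0.79), and its locus held 39.2% and 58.6%. Of the stretches of read length in the Rpl17 transcript, 75.2% also occur in other genes. Among these, Rpl17-ps10 was at 499 TPM in M and 922 in MR, and Rpl17-ps3 at 378 and 411. Whether reads placed on copies lower the Rpl17 level was not tested. The other 20 large subunit genes lay between 356 and 1008 TPM in M and between 662 and 1790 TPM in MR, with log2 ratios from 0.64 to 1.15.

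The P-stalk recruits the elongation factors and holds Rplp1 and Rplp2 on a base formed by Rplp0. Rplp1 was at 1972 TPM in M and at 3335 TPM in MR, the highest level of any member there, with a log2 ratio of 0.76 [0.71 to 0.81]. Rplp2 was at 1008 TPM in M and 1567 in MR (log2 ratio 0.64 [0.56 to 0.71]). Rplp0 was at 797 TPM in M and 2461 in MR (log2 ratio 1.63 [1.56 to 1.69]). In M the base protein was thus the lowest of the stalk mRNAs, and in MR it stood between the others. The intervals of Rplp1 and Rplp2 met at 0.71, and that of Rplp0 lay apart from both.

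Few subunit genes stood away from the rest. Rps24 (chr14:24487125-24496959, plus strand), which has several spliced forms and is also a gene of Diamond-Blackfan anaemia, was the most abundant member in M at 2260 TPM and was at 1009 TPM in MR. Its log2 ratio was −1.16 [−1.24 to −1.09], and −1.03 by coverage per aligned Gb. By that coverage Rps24 was at 574 in M, below Rplp1 at 912 and Rpl41 at 685, so its rank depended on the column. The Rps24 locus held 81.1% of the exon bases of the gene in M and 94.6% in MR. Rpl15 (chr14:18267823-18271391, minus strand), a large subunit protein needed to build that subunit, was at 629 TPM in M and 383 in MR (log2 ratio −0.72 [−0.83 to −0.60]). By coverage per aligned Gb it was 104 in M and 155 in MR (log2 ratio 0.56), so its direction depended on the column of the tables. Rps14 turned the other way, from 0.81 in TPM to −0.83 by coverage per aligned Gb.

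Rpl41, the shortest protein of the ribosome, which bridges the subunits, was at 1827 TPM in M and 2220 in MR (log2 ratio 0.28 [0.22 to 0.34]). Rpl31, at the rim of the tunnel exit, was at 904 TPM in M and 992 in MR (log2 ratio 0.13 [0.04 to 0.23]), and the log2 ratio was −0.05 after median-of-ratios scaling. Both lay near the all-gene median of 0.21, although each was among the more abundant members in M.

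Rpl29 (chr9:106429454-106431568, plus strand), a surface protein of the large subunit, had the highest log2 ratio of the members, 2.73 [2.22 to 3.23], from 16.2 TPM in M to 113 in MR. This value rests on part of the gene. The plus-strand locus ran from 106429443 to 106430374 in M and from 106429552 to 106431381 in MR. A minus-strand locus, to which no gene was given, covered the last exon bases of Rpl29 in both libraries (106431068 to 106431568 in M) and held 481 TPM in M and 762 in MR. With both strands added, the region was at 498 TPM in M and 875 in MR (log2 ratio 0.81), close to the median of the subunit genes. Rpl29 was the only member with at least 10 TPM in opposite-strand loci that had been given no gene.

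Rps27, a zinc-binding protein of the small subunit also known as metallopanstimulin, and its copies differed in direction. The coding sequences are shown because the letters decide how far reads can tell the genes apart. The coding sequence of the retrocopy Rps27rt (chr9:114982366-114982739, minus strand, 1 exon) has the same 252 bases as that of Rps27 (chr3:90212522-90213651, minus strand, 4 exons), without the stop codon. The paralogue Rps27l (chr9:66946086-66949516, plus strand) differs from Rps27 in 60 of 252 bases of its transcript Rps27l-201, which are in capitals. The sequences are those of GENCODE vM21.
Rps27: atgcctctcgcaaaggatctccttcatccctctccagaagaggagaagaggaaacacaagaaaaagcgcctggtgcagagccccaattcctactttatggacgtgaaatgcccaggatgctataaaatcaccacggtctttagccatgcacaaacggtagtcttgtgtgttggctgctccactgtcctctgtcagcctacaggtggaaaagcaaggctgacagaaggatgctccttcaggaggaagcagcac
Rps27rt: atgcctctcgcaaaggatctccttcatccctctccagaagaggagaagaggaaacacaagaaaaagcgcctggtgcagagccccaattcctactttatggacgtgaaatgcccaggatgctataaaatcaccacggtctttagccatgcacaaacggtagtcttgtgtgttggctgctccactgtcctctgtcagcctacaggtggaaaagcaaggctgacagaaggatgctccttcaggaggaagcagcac
Rps27l: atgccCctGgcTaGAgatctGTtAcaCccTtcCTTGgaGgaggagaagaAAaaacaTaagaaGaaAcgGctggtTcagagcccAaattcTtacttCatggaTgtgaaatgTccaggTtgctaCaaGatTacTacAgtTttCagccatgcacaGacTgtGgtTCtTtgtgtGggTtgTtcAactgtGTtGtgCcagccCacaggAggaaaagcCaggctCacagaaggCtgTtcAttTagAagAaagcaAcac

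Rps27 was at 299 TPM in M and 1062 in MR (log2 ratio 1.82 [1.68 to 1.96]). Rps27rt was at 728 TPM in M and 333 in MR (log2 ratio −1.13 [−1.27 to −0.99]). The retrocopy thus held 70.9% of their summed TPM in M and 23.8% in MR. The sum itself was 1027 TPM in M and 1395 in MR (log2 ratio 0.44), below the median of the subunit genes. Of the 150-base windows of the Rps27rt transcript, the length of a read, 85.3% occur without a mismatch in that of Rps27. The split of reads between them is thus uncertain, whereas their sum does not need it. Another gene, Gm17241, also shares windows with Rps27 and is not in the sum. The Rps27rt locus was listed with no strand in both libraries. Rps27l, which is known as a target of p53, shares no such window and was at 283 TPM in M and 259 in MR (log2 ratio −0.13 [−0.34 to 0.09]), and the log2 ratio was 0.02 by coverage per aligned Gb.

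Other copies of ribosomal proteins were assembled as well. Rps12-ps3, a copy of Rps12, a protein of the beak of the small subunit, was at 399 TPM in M and 642 in MR, and Rps12 was at 404 TPM in M and 1218 in MR. Their log2 ratios were 0.68 and 1.59, and that of their sum was 1.21. The share of the copy was 49.7% in M and 34.5% in MR, with 72.8% of its windows found in Rps12. Of the windows of Rps12, 80.7% occur in other genes. Besides Rps12-ps3 these are Rps12-ps4, at 52.8 TPM in M and 84.8 in MR, Rps12-ps9 and Rps12l1, which are not in the sum. Rpl10-ps3, whose 642 coding bases equal those of Rpl10, was at 42 TPM in M and 53.8 in MR, or 3.69% and 2.65% of their sum. Rpl9-ps6, with 1 base different from Rpl9, was at 74 TPM in M and 153 in MR, and Rpl9 at 500 and 864 TPM. Rpl36a-ps1 was at 2.94 TPM in M and 7.86 in MR.

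Paralogues that share no read-length window with the parent gene were compared with it too. Other copies of the parent gene can still take part of its reads, as 81.1% of the windows of Rpl36a occur in Rpl36a-ps1 or Rpl36a-ps2. Rpl36al, which can take the place of Rpl36a, was at 362 TPM in M and 549 in MR (log2 ratio 0.60). Rpl36a itself was at 356 TPM in M and 971 in MR (log2 ratio 1.45). By coverage per aligned Gb, Rpl36a was at 73.7 in M and 432 in MR (log2 ratio 2.54), and Rpl36al at 168 and 244, so that their order in M depended on the column. Rpl22l1 was at 94 TPM in M and 175 in MR, and held 20.9% of the sum with Rpl22 in both libraries. Rpl7l1, which acts in large subunit assembly, was at 61 TPM in M and 66.4 in MR (log2 ratio 0.12 [−0.21 to 0.45]), and the log2 ratio was −0.06 after median-of-ratios scaling. Rpl39l and Rpl3l, known from testis and from heart and skeletal muscle, stayed near the detection limit, at 0.595 TPM each in M and at 1.13 and 1.76 TPM in MR. Rps19bp1 was at 37.3 TPM in M and 32.9 in MR (log2 ratio −0.18 [−0.51 to 0.16]).

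**Figure D3:**
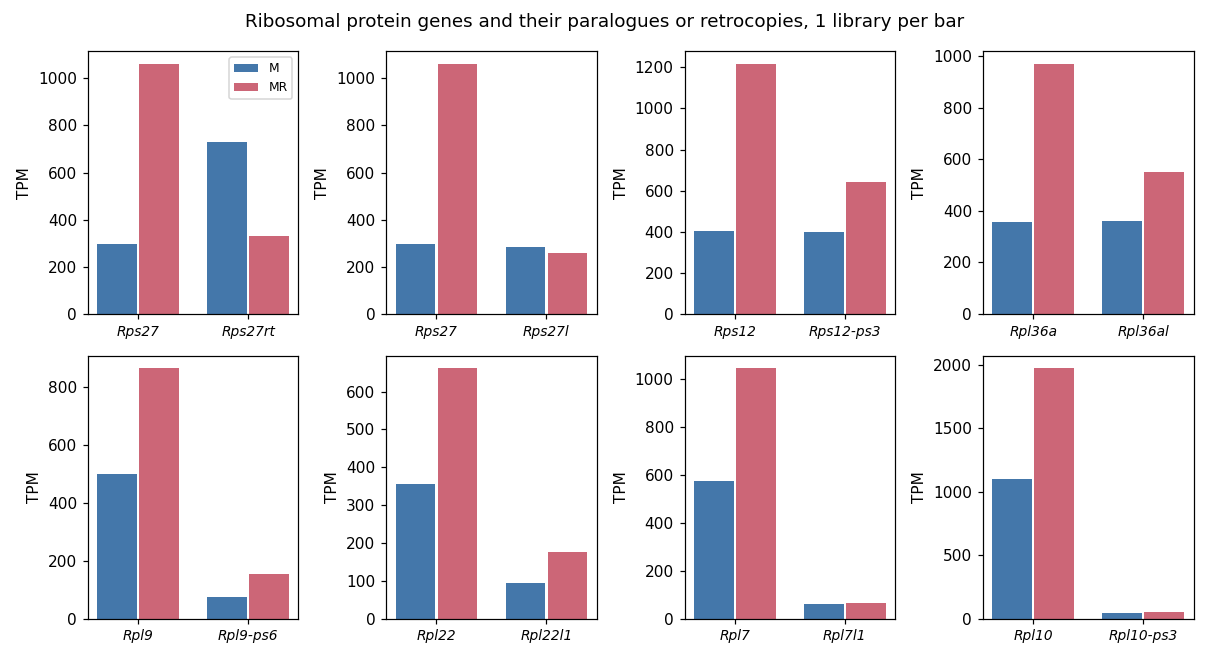
TPM (y axis) of 8 pairs of a ribosomal protein gene and its paralogue or retrocopy, with 1 bar per library from 0. Rps27 is higher and Rps27rt lower in MR, and Rps27l is at 283 and 259 TPM, while both genes of the Rps12, Rpl36a, Rpl9, Rpl22 and Rpl10 pairs are higher in MR.

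Many processed pseudogenes carry the sequence of ribosomal proteins, and reads may be split among them. Of the 77 subunit genes, 9 had no 150-base window in the transcript of another gene, and these were all above 0, with a median log2 ratio of 1.04. Among these 9 are Rpl8, Rps3 and Rps15, with log2 ratios of 1.14, 1.09 and 1.10. Up to 50% of the windows were shared in 48 genes, with a median of 0.85, and over 50% in 20 genes, with a median of 0.94. Rps27, Rpl10 and Rps6 shared the most, at 98%, 90.9% and 82.4%. The widest range, from −1.16 to 2.73, was in the group that shared up to 50%. The 294 pseudogenes named as a ribosomal protein with the ending -ps, which leaves out copies under clone names, summed to 3089 TPM in M and 5340 TPM in MR, and the 59 with a value had a median log2 ratio of 0.77. The largest of them in either library was Rpl17-ps10, at 499 TPM in M and 922 in MR.

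The subunit genes with the longest coding sequences had the highest median log2 ratio. The genes were ordered by coding length, without the stop codon, and cut into 4 groups. The median log2 ratio was 0.80 in the shortest, from 138 to 375 nt, with 5 of 20 genes above 1. It was 1.09 in the longest, from 633 to 1257 nt, with 13 of 19 above 1. Of all genes, of any coding length, 21.2% were above 1. The groups between had medians of 0.89 and 0.83, so that only the last stood apart. A relation to transcript length was not computed, and single genes with long transcripts differed. Rps20, with a transcript of 3706 nt, was at 0.33 and Rps24, with 1613 nt, at −1.16. Rpl5, with 2045 nt, was at 1.09 and Rpsa, with 1938 nt, at 1.36. Over the 77 genes Spearman's rho between coding length and log2 ratio was 0.36 and Pearson's r 0.25. Without Rpl29, Rps24, Rpl15 and Rps27 they were 0.43 and 0.46. Those genes were left out for their outlying log2 ratios, so the higher values are no separate support for a relation. The 77 genes share both libraries, so all these values are a description. Other genes with a TPM of at least 100 and the same coding lengths had medians of 0.27 in the shortest and −0.05 in the longest range. For the GC percent of the transcript rho was 0.09.

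**Figure D4:**
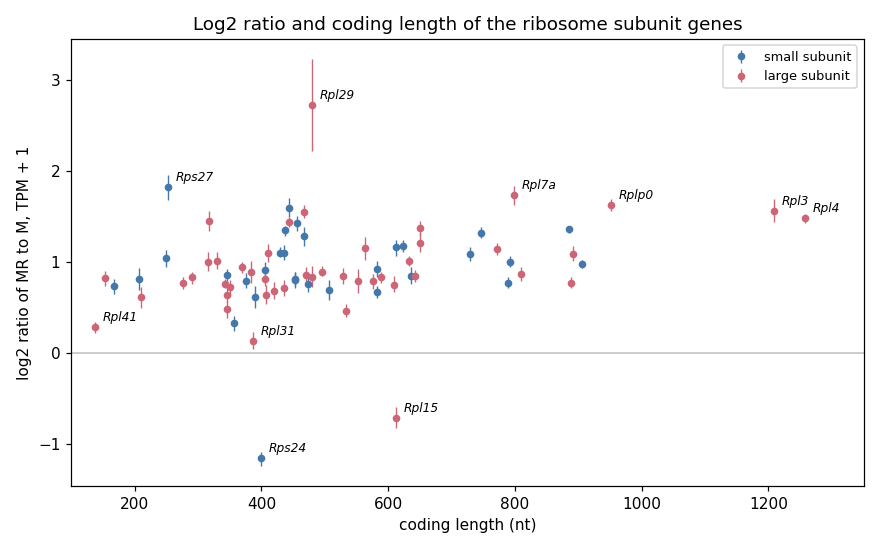
Log2 ratio of MR to M (y axis, TPM + 1) against coding length in nt (x axis) of the small and large subunit genes, with bars for the 95% counting interval. Genes of 633 nt and longer lie at 0.77 or higher, and Rpl29, Rps27, Rps24 and Rpl15 lie away from the others.

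The starts of the genes were read from RefSeq promoters on GRCm38.p6, which held 67 entries for 57 of the 77 subunit genes. A C at the annotated start base with 4 more pyrimidines behind it, the letters of a 5′ TOP element on the coding strand, was found in 13 of the 67 entries, which is 19.4%, as against 2.51% of all 32851 entries and 1.96% of 1739 entries of other genes with a TPM of at least 100. Where the C could lie up to 5 bases away from the annotated start, the shares were 43.3%, 18.3% and 20%. The following sequences give 10 bases before the start and 20 from it on, with the run of pyrimidines from the start base in capitals. They are shown for members at both ends of the range of log2 ratios, among them Rps6 at 1.32, Rps18 at 1.43, Rps27 at 1.82, Rpl35 at 0.94, Rpl38 at 0.61, Rpl15 at −0.72 and Rps27rt at −1.13.
Rps6 (chr4:86857348-86857377, minus strand): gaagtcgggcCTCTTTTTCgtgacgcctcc
Rps18 (chr17:33955646-33955675, minus strand): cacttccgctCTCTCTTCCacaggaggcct
Rps27 (chr3:90213629-90213658, minus strand): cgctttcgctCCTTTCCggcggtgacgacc
Rpl35 (chr2:39005112-39005141, minus strand): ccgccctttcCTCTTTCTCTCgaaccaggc
Rpl38 (chr11:114668570-114668599, plus strand): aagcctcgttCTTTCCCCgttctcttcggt
Rpl15 (chr14:18270967-18270996, minus strand): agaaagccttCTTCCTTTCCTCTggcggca
Rps27rt (chr9:114982720-114982749, minus strand): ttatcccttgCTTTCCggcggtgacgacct

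Rpl15 thus has the longest run of these, 13 pyrimidines, with a log2 ratio below 0 in TPM. The 12 subunit genes with the element at the start base and with a locus of their own had a median log2 ratio of 1.02, with quartiles of 0.63 and 1.33, and the 44 without it had 0.85, with quartiles of 0.77 and 1.10. These ranges overlap. Among other genes with a TPM of at least 100, the median was 0.51 in the 34 with the element and 0.10 in the 1332 without it. These calls need the C at the annotated start base. With up to 5 bases allowed, 43.3% of the member entries had the letters. Genes called without the element may thus still have it, and these medians do not separate genes with and without a TOP element.

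A second set of letters, CCGGAAG on either strand, which is the core bound by ETS factors, was in 25 of the 67 member promoters. That is 37.3%, beside 8.86% of all promoters and 18.6% of those of other genes with a TPM of at least 100. AAGATGGC, the core of the YY1 motif, was in 10.4%, beside 2.75% and 4.89%. It can overlap the ETS letters by 3 bases. TATAAA was in 8.96%, beside 13.6% and 9.37%, and CACGTG, the E-box that Myc and Max bind, was in 11.9%, beside 7.15% and 10.2%. Examples of the ETS letters, in capitals, in 30 bases of the promoter are shown for abundant members. In Rps2, Rpsa and Rpl19 they are on the other strand and read CTTCCGG.
Rpl41 (chr10:128549206-128549235, minus strand): tagtaaggcagCCGGAAGtcgctgtctcga
Rps2 (chr17:24719925-24719954, plus strand): atttatacgtcCTTCCGGctggtgtagggc
Rpsa (chr9:120127567-120127596, plus strand): cgccccagctaCTTCCGGcctggggtctgt
Rpl19 (chr11:98026660-98026689, plus strand): acttagcgtgaCTTCCGGctacccagagga
Rps25 (chr9:44407630-44407659, plus strand): cacccattgccCCGGAAGtactctctcgag

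The letters also lie in the promoters of Rpl15, with a log2 ratio of −0.72, and of Rps18 and Rpl27a, with 1.43 and 1.44. A match is a description of the window and was not tested as a site.

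Ribosomal proteins with other kinds of names lay in the same range. Fau, a ubiquitin-like fusion with Rps30, was at 1062 TPM in M and 1462 in MR (log2 ratio 0.46). Rack1, the scaffold on the head of the small subunit, was at 571 TPM in M and 1074 in MR (log2 ratio 0.91).

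The elongation list, whose mRNAs mostly have a TOP element too, was above 0 in 10 of 10 genes, with a median log2 ratio of 1.04. Besides Eef2 and the Eef1 genes it held Eef2k, Tpt1, Pabpc1, Naca and Btf3, which are not elongation factors. The log2 ratios of Eef2 and the Eef1 genes ran from 0.95 to 1.49, and those of the others from 0.18 to 1.53. Of all genes, 59.5% were above 0. Eef1a1, which brings aminoacyl-tRNA, was at 3761 TPM in M and 7290 in MR, and Eef2, which moves the ribosome along, was at 739 TPM in M and 1720 in MR. Pabpc1, the poly(A)-binding protein, had the largest log2 ratio of the list, 1.53, and Tpt1, also abundant, had 0.35. Initiation factors were above 0 in 26 of 29 genes, with a lower median of 0.58 and 3 above 1, which is 10.3% beside 21.2% of all genes. These were Eif4b at 1.35, Eif3l at 1.26 and Eif3g at 1.02, and Eif5b was below 0 at −0.30.

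Genes of ribosome assembly and RNA polymerase I, which makes most rRNA, were above 0 in 33 of 35 genes, with a median of 0.68. Above 1 were 12, or 34.3%. Of all genes, 59.5% were above 0 and 21.2% above 1. Npm1, a chaperone of the nucleolus, was at 193 TPM in M and 480 in MR, and Nop10, a part of the particles that modify rRNA, was at 37.9 TPM in M and 129 in MR. Sbds, which acts in the last maturation of the large subunit, was at 86.5 TPM in M and 65.9 in MR. Hosts of small nucleolar RNAs were above 0 in 7 of 10 genes, or 70%, near the 59.5% of all genes, with a median of 0.96. Above 1 were 5, or 50%, beside 21.2% of all genes. Gas5, which also has a TOP element, was at 34.5 TPM in M and 197 in MR. The mitochondrial ribosomal proteins, which build the other ribosome of the cell, were above 0 in 65 of 73 genes with a median of 0.65, and 14 were above 1, which is 19.2% beside 21.2% of all genes. Their sum was 3632 TPM in M and 5665 TPM in MR.

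Regulators of these mRNAs were above 0 in 12 of 15 genes, or 80%, beside 59.5% of all genes, with a median of 0.37. Mtor was at 12.4 TPM in M and 17.5 in MR, and Larp1 at 46 TPM in M and 67.5 in MR. The larger ratios were those of Myc, a transcription factor of growth genes, at 3.92 TPM in M and 40.1 in MR, and of Eif4ebp1, the mTORC1 substrate that binds the cap-binding protein, at 81.5 TPM in M and 333 in MR. Max, the partner of Myc, was at 193 TPM in M and 96.5 in MR.

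**Figure D5:**
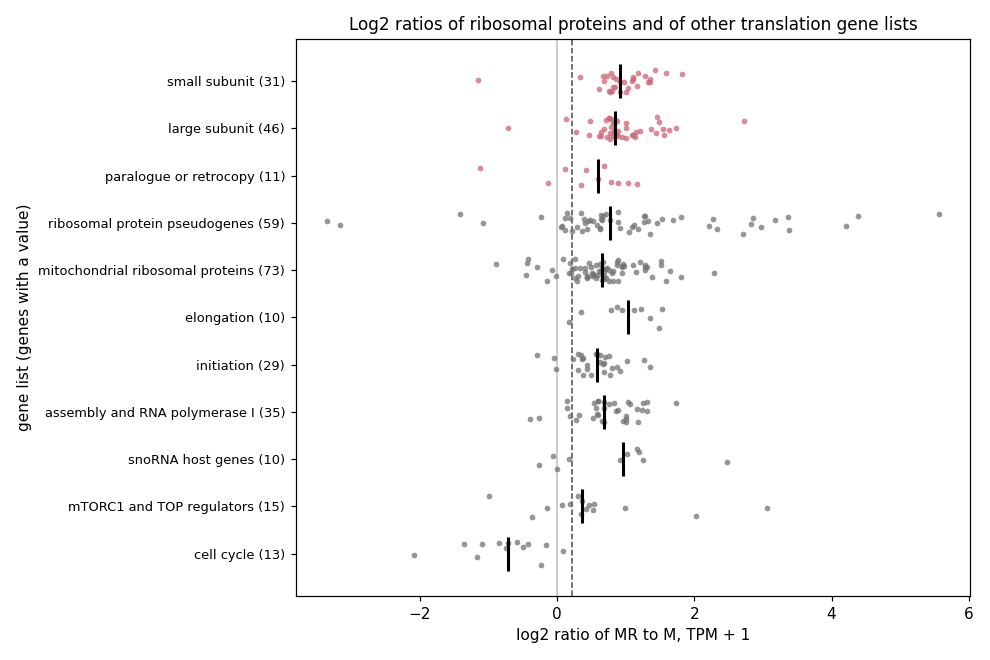
Log2 ratio of MR to M (x axis, TPM + 1) of the genes of each list (y axis, number of genes with a value in parentheses), 1 point per gene (red for members, grey for other lists), with the median as a vertical bar and the median of all genes as the dashed line at 0.21. Of the lists shown, only the cell cycle list has a median below 0, and points are spread vertically at random.

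Other lists differed between the libraries beside the ribosomal proteins, and their part in the result was not tested. Of 13 cell cycle genes, 12 were lower in MR, where 40.5% of all genes were, and the median log2 ratio was −0.71. Pcna, the sliding clamp of DNA replication, was at 518 TPM in M and 121 in MR. Of 7 neutrophil genes, 6 were lower in MR, and their sum was 1362 TPM in M and 950 in MR. The sum of 5 macrophage genes was 20191 TPM in M and 7861 in MR, most of it from Lyz2, and 4 of the 5 were lower in MR. The loci of Lyz2 and Itgam also covered another coding gene in M or in MR, so their values are not theirs alone. Lyz2, the lysozyme of macrophages, was at 16035 TPM in M and 4535 in MR, and Adgre1, which encodes F4/80, was at 681 TPM in M and 148 in MR (log2 ratio −2.20). Csf1r, the receptor for M-CSF, was at 697 TPM in M and 872 in MR. The B cell list summed to 18.1 TPM in M and 7.21 in MR, the stromal list to 15.8 and 19.9 TPM, the erythroid list to 3.35 and 2.11 TPM, the mast cell and basophil list to 3.85 and 0 TPM, and the T and NK cell list to 1.77 and 0 TPM. TPM adds up to the same total in each library, and the ferritin genes Ftl1 and Fth1 alone took 70665 TPM in M and 22848 in MR. With the mitochondrial genes and the 20 most abundant genes taken out, the members' median log2 ratio was 0.75.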

How the data were processed

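RNA from 2 cultures of wild-type bone marrow cells was measured, with 1 library for each. Reads were trimmed by the authors with Trim Galore, mapped to mm10 with HISAT2 and quantified with StringTie on GENCODE vM27. Versions are not given in the sources used here. The deposited tables list a coverage per base (a signal not scaled to depth), an FPKM and a TPM for each entry. The authors' TPM of the assembled loci sum to 1000000 per library, and the entries with gene names come on top, so that the whole TPM column was treated as a signal. Those entries carry positions of GRCm39 and were not used (73 overlapped member exons in M with 1240 TPM, and 75 in MR with 2302 TPM).

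Assembled loci were placed on GENCODE vM21 genes of the same strand, or of either strand for loci listed without one, by the largest overlap with exons, with a minimum of 50 bases. This placed 15665 of 19422 loci of M, with 95.4% of the TPM, and 16523 of 19922 loci of MR, with 96.9%. TPM was summed per gene. Log2 ratios had a pseudocount of 1 and were taken for genes that reached 1 TPM in M or in MR. Genes in the locus of another gene got no value. A gene was called shared where its locus covered another coding gene to 50% or more of its exon length, and counts over all genes left those out. Read pairs were estimated as FPKM times the shortest coding transcript times aligned Gb over 300 bases. Aligned Gb was read off as the mode of coverage divided by FPKM. No test was run, with 1 library per condition. The assignment was tested on simulated loci that spanned nearly whole annotated genes on their own strand. It could not test partial, strandless or opposite-strand loci, nor reads split among copies.

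All members may be named. Those given in full were the 8 most abundant in M, the 5 highest and the 5 lowest log2 ratios, the P-stalk proteins and the paralogues, and genes outside the family came from the lists. The members and lists were chosen with earlier results of these data known. There were 15 alternatives, of which 3 were chosen after seeing the data: coverage per aligned Gb, opposite-strand loci added, and retrocopies added to their parent genes. Promoter sequences came from RefSeq (GRCm38.p6). Python 3.11.15, numpy 2.4.6, pandas 2.3.3, scipy 1.17.1, biopython 1.88 and matplotlib 3.10.9 were used. The values of a few genes are not reported here.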

Additional observations from a re-analysis of the deposited data

Results flagged for a closer look

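A signal lay outside the values used for the members. At the last exon bases of Rpl29, a locus on the opposite strand, to which no gene was given, held 762 TPM in MR, above the 481 TPM of the same place in M, and more than the 113 TPM of the Rpl29 locus itself in MR. Its part in the Rpl29 value is shown by the sum of both strands, and the strand of the reads was not tested.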

How the results depend on the processing

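The members' median log2 ratio of 0.85 was 0.79 with FPKM, 0.67 with median-of-ratios scaling and 0.75 with the mitochondrial genes and the top 20 genes removed. The small subunit median of 0.92 was 0.74 with median-of-ratios scaling, and the large subunit median of 0.85 was 0.67 with it and 0.75 without those abundant genes. The number of members above 1, 33 as reported, was 18 with median-of-ratios scaling and 76 with a log2 threshold of 0.5. The number below −1, 2 as reported, was 1 with loci of the same strand only and 1 with retrocopies added to their parent genes, since Rps27rt then had no value of its own. Over all alternatives, 36 medians stayed within the order-statistic interval of the reported value and the 6 above did not, and 54 counts stayed within 1.5 times of it and the 4 above did not. Of the values of single members, 1025 stayed within their counting interval and 202 did not. The direction turned for Rpl31 and Rpl7l1 with median-of-ratios scaling and for Rpl11, Rpl15, Rps14 and Rps27l with coverage per aligned Gb, and the cause was not tested. Leaving out a replicate would leave a condition without a library. No paired analysis was possible because each condition has 1 library and no test was made. Depth limits Rpl39l, Rpl3l and Rpl36a-ps1, with at most 15.6 estimated read pairs in a library.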
